A study of Mus musculus with 20 samples.

Results

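The smooth muscle contractile programme was followed, by 10 of its genes, through 20 whole-lung RNA-seq libraries. They were taken by gene symbol from a table of 24054 genes, where all 10 were present and all 10 had enough counts to be tested among 16193 genes. They came from female C57Bl6 mice, with 5 biological replicates in each of 4 groups. Mice were wild type or labelled ALOX15 knockout, a deletion of the lipoxygenase gene Alox15, and received either saline or house dust mite extract (HDM), an airborne allergen given into the nose each day for 14 days. The groups are written WT_saline (wild type, saline), WT_HDM (wild type, HDM), KO_saline (knockout label, saline) and KO_HDM (knockout label, HDM), and a number after the name is the replicate. The ages of the mice and the structure of the deleted allele are not given in the sources used here.

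Smooth muscle wraps the airways and the blood vessels of the lung and shortens when phosphorylated myosin pulls on actin filaments. Its contractile genes are switched on together by serum response factor (SRF), a DNA-binding protein, and its partner myocardin, which act at short DNA elements called CArG boxes. Airway smooth muscle narrows the airways in asthma, and repeated allergen can change its amount and its contractile state. The 10 genes are the actins Acta2 and Actg2, the myosin heavy chain Myh11, the actin-binding proteins Tagln (transgelin), Cnn1 (calponin) and Lmod1 (leiomodin), the intermediate filament desmin (Des), myocardin itself (Myocd), the hedgehog-binding inhibitor Hhip and the R-spondin receptor Lgr6, which marks a population of smooth muscle cells around mouse airways.

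RefSeq promoter windows of build GRCm38.p6, from 250 bases before to 50 after the annotated gene start, were matched by symbol for 6 of the 10 genes (Acta2, Cnn1, Lmod1, Des, Hhip and Lgr6). The others are Myh11, Tagln, Actg2 and Myocd. Because SRF and myocardin give the programme its shared control, the windows were searched for CArG boxes on both strands, in the exact form and in a near form with a single G or C among the 6 inner letters. The exact form was in none of the 6 windows and in 1.63% of 32851 windows of all genes. The near form was in 1 of the 6, that of Acta2, and in 8.5% of all windows. The Acta2 window held 2 near matches, starting 84 and 34 bases before the gene start and not overlapping each other. The GLI motif GACCACCCA, the hedgehog response element, was searched on both strands because Hhip is a hedgehog target. It was in none of the 6 and in 0.253% of all windows. A match describes letters only, and no match says only that these letters are not in the window. The 250 bases before the start are shown for Acta2 (chr19:34255374-34255623, minus strand), which holds the near matches, in capitals, and for Cnn1 (chr9:22099003-22099252, plus strand) and Hhip (chr8:80058009-80058258, minus strand), the members on which the results below turn and whose windows hold no match.
Acta2: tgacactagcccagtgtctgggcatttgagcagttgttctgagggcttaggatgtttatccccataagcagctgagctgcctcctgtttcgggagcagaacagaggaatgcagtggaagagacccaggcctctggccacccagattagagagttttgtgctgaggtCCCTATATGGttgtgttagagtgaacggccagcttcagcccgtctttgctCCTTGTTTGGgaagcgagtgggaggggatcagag
Cnn1: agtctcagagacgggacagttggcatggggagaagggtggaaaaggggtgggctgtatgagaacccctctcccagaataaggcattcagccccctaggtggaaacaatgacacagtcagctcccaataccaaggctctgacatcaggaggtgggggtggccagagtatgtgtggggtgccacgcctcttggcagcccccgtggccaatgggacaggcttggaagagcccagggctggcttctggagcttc
Hhip: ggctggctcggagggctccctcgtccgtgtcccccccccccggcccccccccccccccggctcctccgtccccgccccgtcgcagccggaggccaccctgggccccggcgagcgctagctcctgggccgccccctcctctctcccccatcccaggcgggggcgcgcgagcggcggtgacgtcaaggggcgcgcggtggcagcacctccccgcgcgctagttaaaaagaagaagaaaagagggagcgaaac

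Total expected counts were 12573113 to 23305673 per library. Levels are given in CPM, counts scaled to the size and composition of the library. In wild type, Alox15 was at 0.825 to 11.1 CPM under saline and 7.92 to 29.8 CPM under HDM. With the knockout label it was at 38.4 to 44.7 CPM under saline and 34.98 to 45.5 CPM under HDM. The transcript was thus higher in the libraries labelled knockout, so every direction below is between labels. Whether these transcripts span the deleted part of the gene was not tested. In whole lung, a smaller share of smooth muscle cells and less RNA per smooth muscle cell cannot be told apart.

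Single libraries differed widely in the level of the contractile genes. WT_saline 2 was above the mean of its group for 10 of the 10 genes and KO_HDM 5 for 9 of the 10, with Hhip as the exception. Acta2, the smooth muscle alpha-actin, was at 119.9, 597, 181, 187 and 145 CPM in WT_saline 1 to 5. It was at 95.0, 99.5, 135, 155.0 and 114 CPM in WT_HDM 1 to 5. In KO_saline 1 to 5 it was at 172, 125, 106, 156 and 139 CPM, and in KO_HDM 1 to 5 at 63.8, 80.8, 99.9, 98.7 and 221 CPM. WT_saline 2 and KO_HDM 5 therefore stand above the other 4 libraries of their groups, and every pair of groups overlaps.

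Myh11, the smooth muscle myosin heavy chain, was also highest in WT_saline 2 and KO_HDM 5 within their groups. Its levels were 198, 758, 271, 245 and 202 CPM in WT_saline 1 to 5 and 167, 147, 224, 236 and 223 CPM in WT_HDM 1 to 5. They were 261, 184, 139, 209 and 188 CPM in KO_saline 1 to 5 and 119, 146, 159, 139 and 326 CPM in KO_HDM 1 to 5. The highest library of WT_saline was 3.82 times its lowest, and that of KO_HDM 2.74 times its lowest. In WT_HDM and KO_saline the same ratio was 1.61 and 1.88.

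**Figure D1:**
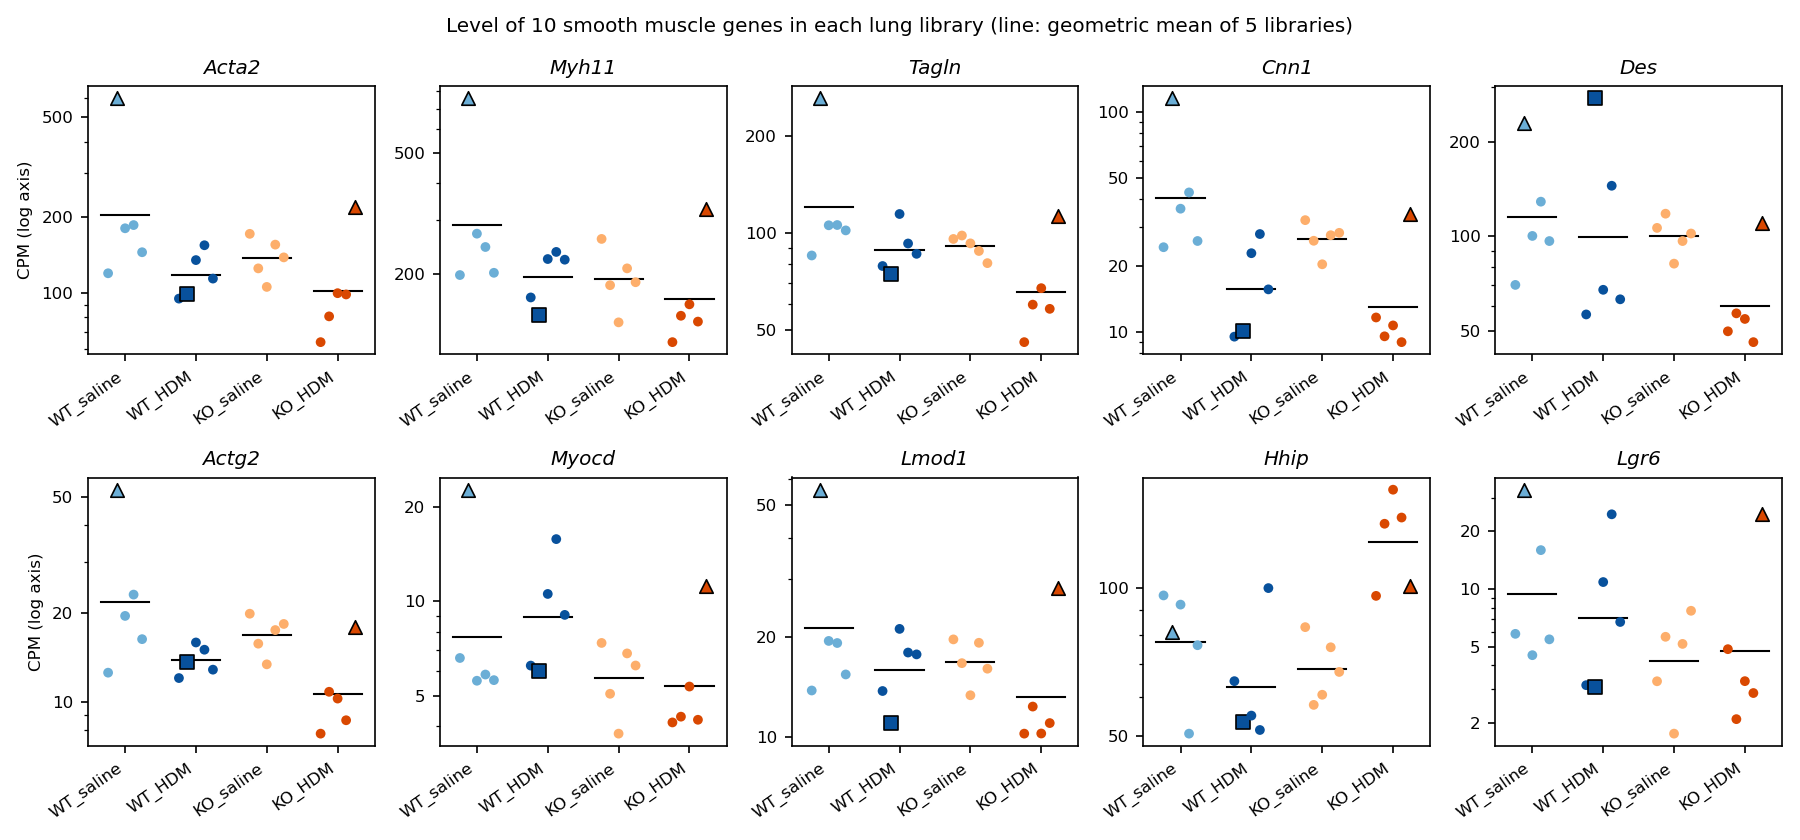
Level of each of the 10 genes (CPM, log axis) in the 5 libraries of each group, with a line at the geometric mean. Triangles mark WT_saline 2 and KO_HDM 5, which are the highest libraries of their groups for 9 of the 10 genes, all but Hhip, and the square marks WT_HDM 2, which is the highest library for Des, at 276 CPM.

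WT_saline 2 and KO_HDM 5 were also high in transcripts of fat, cardiac muscle and cartilage. Cardiac muscle lies in the pulmonary veins as well as in the heart, and the source of its transcripts was not tested. WT_saline 2 had 85.1 CPM of the fat hormone Adipoq, 1549 CPM of the cardiac myosin Myh6 and 22.1 CPM of Acan, a cartilage proteoglycan that is also made in the tracheal and bronchial rings. KO_HDM 5 had 167 CPM of Adipoq, 1783 CPM of Myh6 and 4.85 CPM of Acan. Adipoq was also high in WT_saline 4 (102.6 CPM), WT_HDM 2 (124.5 CPM) and WT_HDM 4 (169 CPM), and it was at most 27.7 CPM in the other 15 libraries. Of these 3, WT_HDM 2 had the lowest Myh11 of its group and WT_HDM 4 the highest, and WT_saline 4 was the middle library of its group for Myh11. Acan was at 3.63 CPM in WT_saline 4, 1.55 CPM in WT_HDM 4 and at most 0.622 CPM in the other 16 libraries. WT_HDM 4 was rich in cardiac transcripts, with 2409 CPM of Myh6. It was the highest library of its group for Myocd, which the heart also expresses, and for Lgr6. Libraries with at least 1000 CPM of Myh6 are called heart-rich below, whichever the source. Myh6 was at 0.352 to 449 CPM in the libraries below that level.

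In the order WT_saline, WT_HDM, KO_saline and KO_HDM, the summed level of the 10 cardiac markers was 209 to 3068, 100.2 to 4870, 44.2 to 935 and 86.4 to 3350 CPM. The summed level of the 8 adipose markers was 17.8 to 667, 10.3 to 1298, 9.90 to 206 and 6.32 to 1133 CPM in the same order, with every marker of both lists present in each group. For the cartilage list, 9 of whose 10 symbols are in the table, the sums were 1.38 to 45.7, 4.06 to 11.02, 1.03 to 2.48 and 2.53 to 17.4 CPM, and Col9a1 was at 0 in KO_saline. The part of these tissues in the level of the contractile genes was not tested.

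Des behaved differently in 1 library. It was at 70.0, 230.1, 100.3, 129 and 96.6 CPM in WT_saline 1 to 5 and at 56.4, 276, 67.5, 145.0 and 63.0 CPM in WT_HDM 1 to 5. The library WT_HDM 2 was the highest for Des but the lowest of its group for Myh11. Desmin is shared by smooth, skeletal and cardiac muscle, and WT_HDM 2 also held 1315 CPM of the skeletal muscle actin Acta1 and 414.5 CPM of the muscle creatine kinase Ckm. The summed level of the 10 skeletal muscle markers ranged from 6.19 to 6551 CPM in WT_HDM, with a median of 6.92, and from 3.21 to 115 CPM over the other 3 groups, where Myh4 was at 0 in KO_HDM. How much of the Des level comes from skeletal muscle was not tested.

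Within groups the genes rose and fell together from library to library. The standard deviation of log2 CPM within groups was 0.33 for Hhip, 0.42 for Tagln, 0.54 for Myh11, 0.70 for Cnn1 and 1.18 for Lgr6, against a median of 0.23 over all tested genes. Deviations from the group mean were correlated with those of Myh11 over the 20 libraries, and p-values come from 100000 permutations of libraries within groups, adjusted over the 9 relations. Pearson's r was 0.97 for Acta2 and for Lmod1, 0.94 for Myocd, 0.93 for Actg2, 0.92 for Cnn1 and 0.91 for Tagln, with permutation p-values of 1e-05 (the smallest the permutations can give) to 0.00021 and adjusted values up to 0.000315. Spearman's rho for these 6 genes was 0.84 to 0.94, with permutation p up to 0.00022 and adjusted values up to 0.00033. Without the 2 libraries farthest from the median of Myh11, WT_saline 2 and KO_HDM 5, r remained 0.87 for Acta2 and Lmod1, 0.78 for Myocd, 0.75 for Cnn1, 0.70 for Actg2 and 0.58 for Tagln, with adjusted permutation p-values of up to 0.022. The shared deviation of these 6 genes was therefore still seen in the remaining 18 libraries.

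Lgr6 gave r = 0.75 (permutation p 0.00182, adjusted 0.00234; rho 0.67, permutation p 0.00236, adjusted 0.00303), and Des gave r = 0.47 (permutation p 0.0397, adjusted 0.0447; rho 0.44, permutation p 0.0567, adjusted 0.0638). Without WT_saline 2 and KO_HDM 5 these were 0.48 (adjusted permutation p 0.121) and -0.08 (adjusted permutation p 0.793), so neither relation held without both of those libraries. With a single library left out, Lgr6 passed the test in 20 of 20 cases and Des in 7 of 20. The value for Des also turned on WT_HDM 2, the library with skeletal muscle transcripts, without which r was 0.81 (adjusted permutation p 0.000255), while it was 0.26 without WT_saline 2 (adjusted permutation p 0.332) and 0.35 without KO_HDM 5 (adjusted permutation p 0.234). Hhip showed no detectable relation, with r = 0.07 (permutation p 0.806, adjusted 0.806; rho 0.08, permutation p 0.755, adjusted 0.755) and r = 0.33 without the pair (adjusted permutation p 0.243).

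**Figure D2:**
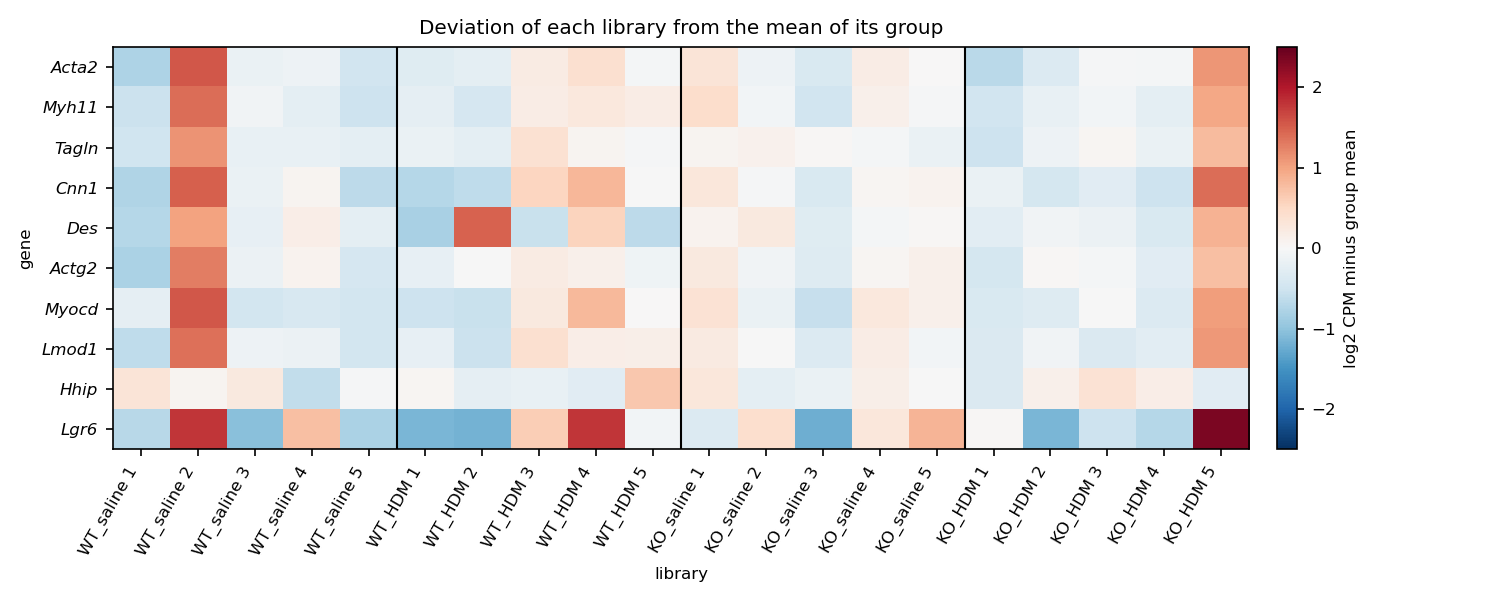
Deviation of each library (columns, by group) from the mean of its group in log2 CPM, for each gene (rows); red is above and blue below the group mean. The columns of WT_saline 2 and KO_HDM 5 are red for the contractile genes, while the row of Hhip does not follow them and the row of Des is red in WT_HDM 2.

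The 10 genes of the table most like the 10 members, by Pearson's r of their deviations with the mean standardised deviation of the members over 20 libraries, were Myl9, Mrvi1, Synpo2, Ncam1, Map1a, Adcy5, Nov, Ccdc3, Gpc6 and Slc6a17. Their r ran from 0.96 for Myl9, the regulatory light chain of smooth muscle myosin, to 0.89 for Slc6a17, and it was 0.73 to 0.90 without WT_saline 2 and KO_HDM 5. The first 3 were already on the list of related smooth muscle genes. These values describe libraries that share composition and carry no test.

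In wild type, 2 of the 10 genes fell with HDM and none rose (edgeR's quasi-likelihood test, adjusted p under 0.05; such genes are said to be called). Over all genes 30.1% were called in this comparison and 16.5% were called lower, so 2 of 10 is near the background. Cnn1, which binds actin and restrains the myosin motor, was at 24.2, 115, 36.3, 43.0 and 25.9 CPM in WT_saline 1 to 5 and at 9.52, 10.1, 22.8, 27.8 and 15.6 CPM in WT_HDM 1 to 5. Its log2 fold change was -1.51 ± 0.46 (SE, adjusted p 0.0187). WT_HDM 4 lies above the lowest saline library, so the groups overlap. Actg2, the gamma actin of smooth muscle, was at 12.6, 52.8, 19.6, 23.2 and 16.4 CPM in WT_saline 1 to 5 and at 12.1, 13.7, 15.9, 15.1 and 12.9 CPM in WT_HDM 1 to 5. Its log2 fold change was -0.84 ± 0.30 (adjusted p 0.0394). Reads shared by near-identical actin genes are split by the counting program, so Acta2 and Actg2 are uncertain one by one.

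Acta2 changed by -1.04 ± 0.39 on the log2 scale and missed the threshold (adjusted p 0.0509). Myh11 (-0.75 ± 0.34, adjusted p 0.109), Tagln (-0.57 ± 0.27, adjusted p 0.118) and Lmod1 (-0.60 ± 0.35, adjusted p 0.212) were lower on average without passing the test. None of the 10 genes had groups that did not overlap, against 11.6% of all genes. The median log2 fold change of the 10 was -0.58, against -0.02 over all genes. Both calls depended on single libraries. Cnn1 was not called without WT_saline 2 (-0.92, adjusted p 0.0925), without WT_HDM 1 (-1.33, adjusted p 0.056) or without WT_HDM 2 (-1.34, adjusted p 0.0577). Actg2 was not called in 11 of 20 such fits, which left out WT_saline 2 (-0.37, adjusted p 0.216), any WT_HDM library or any KO_saline library.

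In the libraries labelled knockout, only Hhip of the 10 genes passed the test with HDM, and it rose. Over all genes 51.9% were called there and 25.7% called lower. For most of the 9 others, KO_HDM 5 stood apart from KO_HDM 1 to 4. Cnn1 was at 32.2, 25.9, 20.3, 27.5 and 28.2 CPM in KO_saline 1 to 5 and at 11.6, 9.55, 10.7, 8.99 and 34.4 CPM in KO_HDM 1 to 5 (log2 fold change -0.83 ± 0.45, adjusted p 0.132). Actg2 was at 13.4 to 19.96 CPM in KO_saline and at 7.79, 10.8, 10.3, 8.66 and 18.1 CPM in KO_HDM 1 to 5 (-0.62 ± 0.30, adjusted p 0.0911). Tagln was at 80.5 to 98.1 CPM in KO_saline and at 45.7, 59.8, 67.3, 58.0 and 113 CPM in KO_HDM 1 to 5 (-0.41 ± 0.27, adjusted p 0.213). KO_HDM 5 was the highest library of its group for each of the 3 genes.

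KO_HDM 5 was singled out because it was high for these same genes, so the values without it are a description that favours lower levels and nothing is read from their number. Leaving it out, 6 of the 10 genes (Acta2, Tagln, Cnn1, Des, Actg2 and Lmod1) were lower in each remaining KO_HDM library than in every KO_saline library, where 24.9% of all genes were lower in this way. For Cnn1 the highest of KO_HDM 1 to 4 was 11.6 CPM and the lowest KO_saline library 20.3 CPM. For Acta2 these were 99.9 and 106 CPM, and for Des 56.8 and 81.8 CPM. With that library alone left out, the fit called 3 genes lower, Cnn1 (-1.39, adjusted p 0.0103), Actg2 (-0.86, adjusted p 0.0223) and Tagln (-0.66, adjusted p 0.0372), where 24% of all genes were called lower.

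A further fit, chosen after the data were seen, left out the 5 libraries with at least 50 CPM of Adipoq, which are WT_saline 2 and 4, WT_HDM 2 and 4 and KO_HDM 5, and kept 15. The choice used a fat transcript and not the 10 genes, but it removes both of the muscle-rich libraries. Of the libraries labelled knockout it leaves out only KO_HDM 5, the library singled out above for these same genes. For that comparison it is thus no separate choice of libraries, and again nothing is read from the number of genes. In the libraries labelled knockout, 7 of the 10 genes then fell with HDM, against 28.1% of all genes. They were Cnn1 (-1.41, adjusted p 4.06e-05), Des (-0.98, adjusted p 8.65e-06), Actg2 (-0.87, adjusted p 0.000197), Acta2 (-0.72, adjusted p 0.00229), Tagln (-0.67, adjusted p 0.000312), Lmod1 (-0.65, adjusted p 0.00142) and Myh11 (-0.49, adjusted p 0.0166). Hhip rose as before (0.93, adjusted p 0.000358). In wild type, with 3 libraries left in each group, 2 genes fell, Cnn1 (-0.87, adjusted p 0.0179) and Des (-0.53, adjusted p 0.0176), against 10.8% of all genes. Acta2 changed by -0.39 (adjusted p 0.196) and Myh11 by -0.14 (adjusted p 0.655) there. A fit without the 3 libraries with at least 1000 CPM of Myh6 (WT_saline 2, WT_HDM 4 and KO_HDM 5), also chosen after the data were seen, called the same 7 genes lower in the libraries labelled knockout, against 27.9% of all genes. It too leaves out only KO_HDM 5 among those libraries. Both fits therefore compare the same libraries there, and the like result is not a second support.

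The difference between the 2 genotypes in this response was not called for any of the 9 genes other than Hhip, in the full fit or without the adipose-rich libraries. Its sign turned for 7 of them between the 2 fits, for example from 0.73 to -0.33 for Acta2 and from 0.68 to -0.54 for Cnn1. The direction of a genotype difference in the HDM response of these genes therefore depends on which libraries are kept.

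**Figure D3:**
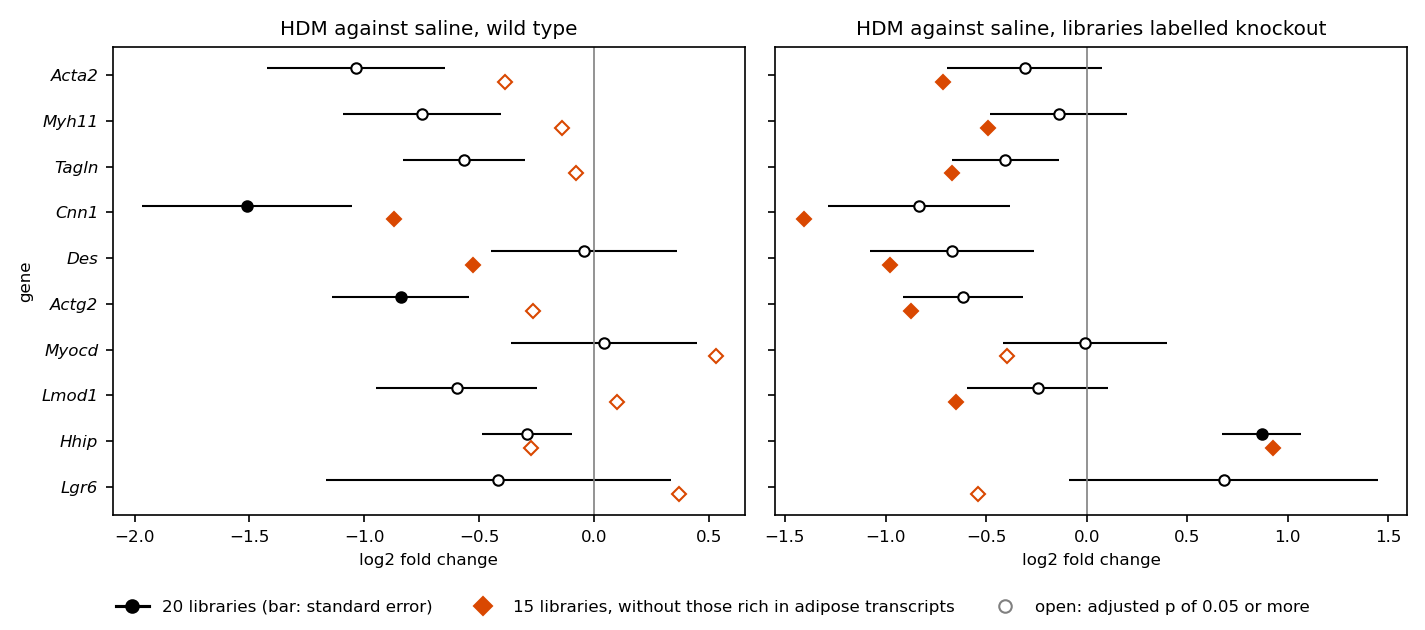
Log2 fold change of each gene with HDM in wild type (left) and in the libraries labelled knockout (right), with all 20 libraries (circles, bars give the standard error) and without the 5 libraries rich in adipose transcripts (diamonds); filled symbols have an adjusted p under 0.05. On the right 7 diamonds left of 0 are filled, while on the left only those of Cnn1 and Des are.

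Since 6 of the genes deviated together with Myh11 from library to library, the members were also compared per unit of Myh11, a choice made after the values were seen. Cnn1 had 12.2, 15.2, 13.4, 17.5 and 12.8 counts per 100 counts of Myh11 in WT_saline 1 to 5, and 5.69, 6.86, 10.2, 11.8 and 7 in WT_HDM 1 to 5. In KO_saline 1 to 5 it had 12.3, 14.1, 14.6, 13.2 and 15 counts per 100, and in KO_HDM 1 to 5 it had 9.76, 6.56, 6.74, 6.45 and 10.5. Every HDM library was below every saline library of the same genotype, and KO_HDM 5, with its high Cnn1 level, had the highest ratio of its group without reaching the saline libraries. Over all genes, 5.87% had ratios to Myh11 that did not overlap in wild type and 10.4% in the libraries labelled knockout. This pattern was among 9 genes examined, and the ratio carries no test.

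With the Myh11 level of each library as a covariate in the edgeR fit, Cnn1 changed by -0.67 ± 0.18 with HDM in wild type (adjusted p 0.0109) and by -0.76 ± 0.18 in the libraries labelled knockout (adjusted p 0.00135). It was called in 20 of 20 fits that left out a library in both genotypes, with values from -0.84 to -0.56 and from -0.86 to -0.70. Without the adipose-rich libraries the changes were -0.77 (adjusted p 0.0114) and -0.97 (adjusted p 0.00141). Of the 9 genes, 2 were called in wild type in this fit, against 27.7% of all genes, and 4 in the libraries labelled knockout, against 52.7%. Both shares are at or below the background, so the genes are not set apart from the rest of the table by their number of calls.

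The other call in wild type was Myocd, the coactivator of the programme, which rose relative to Myh11 (0.85 ± 0.16, adjusted p 0.000994), again in 20 of 20 fits. Its plain level was 6.60, 22.8, 5.58, 5.84 and 5.61 CPM in WT_saline 1 to 5 and 6.24, 6.01, 10.6, 15.8 and 9.06 CPM in WT_HDM 1 to 5, and did not pass the test (0.04 ± 0.40, adjusted p 0.949). Per 100 counts of Myh11 it had 2.06 to 3.33 counts in WT_saline and 3.73 to 6.70 in WT_HDM, which do not overlap. Without the adipose-rich libraries, which include the heart-rich WT_HDM 4, the change at equal Myh11 was 0.61 (adjusted p 0.0233). In the libraries labelled knockout it was 0.14 ± 0.15 (adjusted p 0.461), and the difference between the genotype labels at equal Myh11 did not pass the test (-0.71 ± 0.22, adjusted p 0.1). For Cnn1 that difference was -0.09 ± 0.25 (adjusted p 0.897). In the libraries labelled knockout the other calls besides Cnn1 were Actg2 (-0.50 ± 0.12, adjusted p 0.00166), Tagln (-0.34 ± 0.11, adjusted p 0.0156) and Hhip. The Tagln call was lost without KO_saline 2 or KO_saline 3, with adjusted p up to 0.0915.

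**Figure D4:**
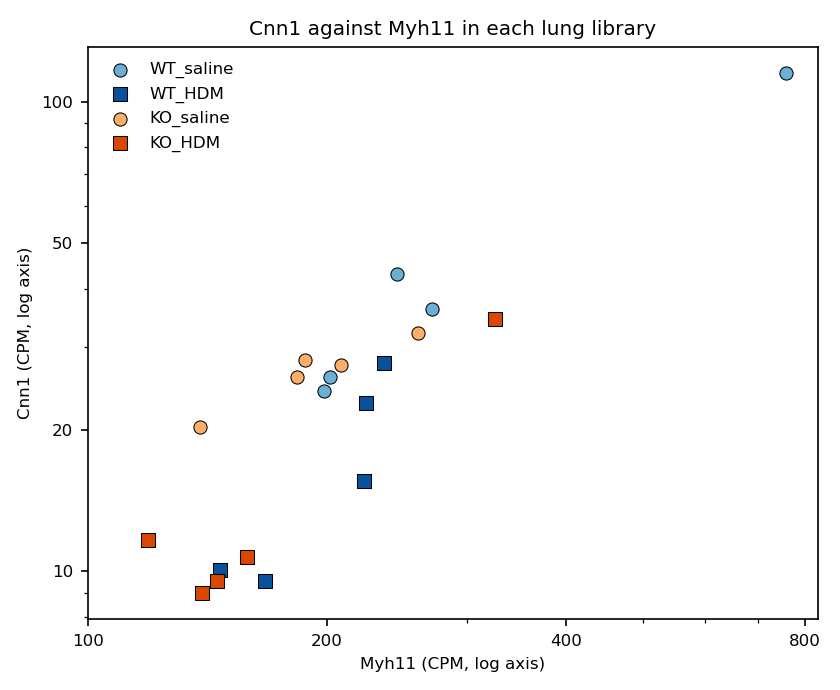
Cnn1 against Myh11 (both in CPM on log axes) in each of the 20 libraries, with saline as circles and HDM as squares. At a like level of Myh11 the squares lie below the circles, as in the ratios of 12.2 to 17.5 counts of Cnn1 per 100 of Myh11 under saline and 5.69 to 11.8 under HDM.

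Hhip stood apart from the contractile genes. It encodes a membrane protein that binds hedgehog ligands and keeps them from their receptor. Its levels were 96.5, 81.4, 92.5, 50.5 and 76.4 CPM in WT_saline 1 to 5 and 64.6, 53.4, 54.9, 51.4 and 99.9 CPM in WT_HDM 1 to 5. They were 83.2, 57.8, 60.6, 75.7 and 67.4 CPM in KO_saline 1 to 5 and 96.3, 135, 159, 139 and 101 CPM in KO_HDM 1 to 5. Every KO_HDM library was above every KO_saline library, which 43.9% of all genes match in either direction, and KO_HDM 5 was not the highest of its group.

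Hhip rose 1.83-fold with HDM in the libraries labelled knockout (log2 fold change 0.87 ± 0.20, adjusted p 0.0011; exact two-sided permutation p 0.00794, the smallest that 5 against 5 allows). In wild type it changed by -0.29 ± 0.20 (adjusted p 0.279), and by -0.46 (adjusted p 0.0455) without WT_HDM 5. Under HDM it was 1.94-fold higher in the libraries labelled knockout than in wild type (0.96 ± 0.20, adjusted p 0.00576). It was the only one of the 10 genes called in that comparison, in which 6.67% of all genes were called. Both of these calls held in all 20 fits without a library, with log2 fold changes of 0.77 to 0.99 and of 0.86 to 1.16.

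The HDM response of Hhip differed between the genotype labels by 1.16 ± 0.28 on the log2 scale (adjusted p 0.0438), and 1.24% of all genes were called in this test. The size was stable, from 1.05 to 1.37 when each library was left out, but the adjusted p ranged from 0.00964 to 0.108 and passed in 7 of 20 fits. It was lost without WT_saline 1, 2 or 3, WT_HDM 1, 2, 3 or 4, KO_saline 2, 3 or 5, or KO_HDM 2, 3 or 4. Without the adipose-rich libraries the difference was 1.204 (adjusted p 0.0616), with 0.631% of all genes called, and with a replicate block it was 1.18 (adjusted p 0.0657). Without the heart-rich libraries it was 1.11 (adjusted p 0.107). At equal Myh11 it was 1.15 ± 0.29 (adjusted p 0.0488), with 1.67% of all genes called, in 6 of 20 fits without a library, and 1.42 (adjusted p 0.0362) without the adipose-rich libraries. Also at equal Myh11, Hhip was the only one of the 9 genes called between the labels under HDM (0.97 ± 0.21, adjusted p 0.00818), where 6.1% of all genes were called, and none was called under saline, where 0.642% were. The summed level of 10 fibroblast markers, all present in every library, was 3590 to 4351 CPM under saline and 5771 to 8870 CPM under HDM with the knockout label, and 3329 to 5394 and 4681 to 6469 CPM in wild type. The sum does not stand for each marker. Of the 10, 2 rose and 5 fell with HDM in wild type, and 4 rose and 5 fell with the knockout label. Over all genes 30.1% and 51.9% were called. The part of fibroblasts in the Hhip level was not tested.

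Lgr6 had the widest spread of the 10 genes. Its ranges were 4.52 to 33.0 CPM in WT_saline and 3.07 to 24.6 CPM in WT_HDM. They were 1.76 to 7.70 CPM in KO_saline and 2.095 to 24.8 CPM in KO_HDM. The top values were those of WT_saline 2, WT_HDM 4 and KO_HDM 5, which also had the highest Myh6. No comparison of Lgr6 passed the test, with standard errors of 0.75 to 0.77 for the pairwise differences on the log2 scale. Lmod1, which nucleates actin filaments, ranged from 13.8 to 55.8 CPM in WT_saline and from 11.01 to 21.2 CPM in WT_HDM. It ranged from 13.4 to 19.7 CPM in KO_saline and from 10.3 to 28.1 CPM in KO_HDM.

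Between the genotype labels under saline, none of the 10 genes passed the test, by edgeR or by DESeq2, and 0.908% of all genes did by edgeR. All 10 were lower on average in the libraries labelled knockout, as were 55.2% of all genes. The smallest unadjusted p of the 10 were those of Myh11 (-0.77 ± 0.34, adjusted p 0.293) and Acta2 (-0.82 ± 0.39, adjusted p 0.316). Without WT_saline 2 these changes were -0.20 for Myh11 and -0.16 for Acta2. The averages of Myh11 and Acta2 thus rest largely on that library. Without it Des (0.055), Myocd (0.019) and Lmod1 (0.028) turned just above 0. Tagln (-0.10), Cnn1 (-0.24) and Actg2 (-0.05) stayed below 0. Lgr6 was at -0.72, from -1.46 in the full fit, and Hhip hardly moved, at -0.17 from -0.20. Under HDM, the fit without the adipose-rich libraries called Tagln (-0.68, adjusted p 0.00887), Myocd (-0.93, adjusted p 0.0163) and Lmod1 (-0.67, adjusted p 0.0219) lower in the libraries labelled knockout besides Hhip, with 7.34% of all genes called. In the full fit these were -0.38 ± 0.27, -0.71 ± 0.41 and -0.18 ± 0.35 and did not pass.

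In a list of 25 related smooth muscle genes, more members fell than rose with HDM. Of the 25, 1 rose and 10 fell with HDM in wild type, and 2 rose and 10 fell in the libraries labelled knockout. Over all genes 16.5% and 25.7% fell and 30.1% and 51.9% were called in either direction, so the 12 of 25 called in the libraries labelled knockout are near the background. Without the adipose-rich libraries the counts were 1 and 10 in wild type and 2 and 15 in the libraries labelled knockout. In that fit 10.8% and 28.1% of all genes fell, and 21.4% and 54.8% were called in either direction. With all 20 libraries the median log2 fold change was -0.26 in wild type and -0.33 with the knockout label, against -0.02 and 0.02 over all genes. The intermediate filament protein synemin (Synm) fell by 1.08 on the log2 scale in wild type (adjusted p 1.43e-05) and fell by 1.62 in the libraries labelled knockout (adjusted p 4.35e-08). Ppp1r14a, an inhibitor of myosin phosphatase, changed by -1.42 (adjusted p 0.000135) and -1.81 (adjusted p 2.86e-06). The integrin subunit Itga8 changed by -1.32 and -1.37 (adjusted p 0.000117 and 2.08e-05), while Itga7 rose by 1.06 and 1.11 (adjusted p 0.000135 and 2.07e-05). Under saline 1 gene was lower in the libraries labelled knockout, Filip1l (-0.28 ± 0.06, adjusted p 0.0459), where 0.908% of all genes were called. No gene of the list was called between labels under HDM or in the difference of responses, where 6.67% and 1.24% of all genes were. Without the adipose-rich libraries none was called under saline and 2 were lower under HDM, with 0.723% and 7.34% of all genes called.

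Among 17 regulators of the programme and of the hedgehog and R-spondin pathways, 1 rose and 5 fell with HDM in wild type, and 2 rose and 7 fell in the libraries labelled knockout. The 6 and the 9 of 17 called are near the 30.1% and 51.9% of all genes. Ptch1, the hedgehog receptor, fell by 0.84 in wild type (adjusted p 0.000503) and fell by 0.91 in the libraries labelled knockout (adjusted p 6.3e-05). Notch3, a receptor of vascular smooth muscle and pericytes, changed by -0.91 and -0.97 (adjusted p 0.00185 and 0.000403). In wild type Srf fell by 0.35 (adjusted p 0.019) and the TGF-beta receptor Tgfbr2 fell by 0.37 (adjusted p 0.0204). Srf changed by -0.24 with the knockout label (adjusted p 0.0718), and the difference of its responses was not called (0.11 ± 0.15, adjusted p 0.771). In the libraries labelled knockout Rspo1, a ligand of Lgr6, fell by 1.35 (adjusted p 2.22e-06) and the transcription factor Mef2c rose by 1.11 (adjusted p 5.65e-05). Rspo1 was also lower in the libraries labelled knockout than in wild type under HDM (-0.57, adjusted p 0.0405), and Rspo3 was higher (0.61, adjusted p 0.0428). Over all genes 6.67% were called in that comparison. The HDM response of Rspo1 differed between labels by -1.12 ± 0.23 (adjusted p 0.0203). Without the adipose-rich libraries no regulator rose and 2 fell in wild type, and 4 rose and 7 fell in the libraries labelled knockout. In that fit 21.4% and 54.8% of all genes were called. None of the regulators was called in the difference of responses, where 0.631% of all genes were. Between labels under HDM 1 regulator was lower and none higher, with 7.34% of all genes called, so the Rspo3 call was lost.

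Pericytes, the contractile cells on capillaries, share several of these transcripts. Of 9 pericyte markers, 6 fell and none rose in wild type with HDM, and 4 fell and 1 rose in the libraries labelled knockout. Against 30.1% and 51.9% of all genes called, and 16.5% and 25.7% called lower, the 5 of 9 called in the libraries labelled knockout are near the background. Pdgfrb changed by -0.86 (adjusted p 0.00232) and -0.68 (adjusted p 0.00561), and Cox4i2 by -0.78 (adjusted p 0.0042) and -1.01 (adjusted p 0.000193). Their summed level was 468 to 696 CPM under saline and 278 to 481 CPM under HDM in wild type, and 423 to 662 and 291 to 401.5 CPM with the knockout label, with every marker present in each group. KO_HDM 5 was at 367 CPM, within the range of its group, unlike its Myh11. WT_saline 2 was the highest of its group, as for Myh11, at 696 CPM, though WT_saline 3 was close at 690.1 CPM. The part of pericytes in the level of the contractile genes was not tested. For the fibroblast list, 2 rose and 5 fell in wild type and 4 rose and 5 fell in the libraries labelled knockout. The shares of all genes called were the same 30.1% and 51.9%. Fn1 was higher by 0.90 and 1.77 (adjusted p 0.000596 and 1.89e-07), and Col3a1 rose by 1.81 with the knockout label (adjusted p 2.64e-06). Wnt2 changed by -1.13 and -1.94 (adjusted p 0.00103 and 1.53e-06), and Pdgfra by -0.82 and -1.25 (adjusted p 0.00106 and 5.49e-06). Tcf21 changed by -1.15 in wild type (adjusted p 0.000515).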

How the data were processed

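The authors deposited RSEM expected counts per gene and library, not normalized; Bowtie2 2.1.0 and RSEM 1.2.15 are named per the submitters' processing notes, with the human build hg38, although the symbols are mouse, so the build used is not known. The labels' protocols describe oligo-dT selected, strand-specific (dUTP) libraries and also ribosomal RNA depletion. Counts were rounded, filtered with filterByExpr by group and tested with edgeR 4.0.16 under R 4.3.3 (TMM factors, robust quasi-likelihood F test, a mean per group, 20 libraries, 16 residual degrees of freedom). P-values were adjusted by Benjamini-Hochberg over 16193 genes within a comparison, and called means an adjusted p under 0.05. Values after ± are standard errors. Log2 CPM for correlations used a prior count of 2.

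Named genes are the 10 members, up to 4 called genes per list and comparison with the smallest adjusted p, the 10 most alike genes and Alox15; other marker genes, such as Adipoq, Acan, Acta1 and Ckm, were named after their values were seen. The members, lists and rules were chosen with earlier results of these data known. Promoters come from RefSeq (GRCm38.p6). Correlations used Python 3.11.15. Scripts were tested on simulated counts. Alternatives were DESeq2 1.42.0, RLE factors, no filter, the 10 compared libraries alone, a replicate block, a prior count of 0.5, each library left out and, added after the data were seen, fits without adipose-rich or heart-rich libraries. Libraries of a group differed from each other by more than counting noise. The labels call them biological replicates.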

Additional observations from a re-analysis of the deposited data

Results flagged for a closer look

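In 10 of 40 tests, each of 1 gene in 1 group of 5 libraries, a single library lay far from the other 4, its gap to the nearest being more than 0.71 of the range of the group. Chance alone gives this in about 1 in 20 groups. Of these, 5 were WT_saline 2 and 5 were KO_HDM 5, in each case the highest library. For WT_saline 2 the gap was 0.725 of the range for Acta2, 0.766 for Myh11, 0.807 for Tagln, 0.882 for Myocd and 0.754 for Lmod1. For KO_HDM 5 it was 0.715 for Myh11, 0.808 for Cnn1, 0.758 for Des, 0.739 for Myocd and 0.813 for Lmod1. The genes share a library, so these are not independent events.

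The HDM response of Hhip differed between the genotype labels by 1.162 on the log2 scale (edgeR, adjusted p 0.0438). This call held in 7 of 20 fits that left out a library. It was lost without the adipose-rich libraries (edgeR, adjusted p 0.0616) and with a replicate block (adjusted p 0.0657). Hhip rose in the libraries labelled knockout, where 5 of 5 KO_HDM libraries lay above all KO_saline libraries. There 43.9% of all genes did not overlap between the groups, in either direction. In wild type the change of Hhip did not pass the test.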

How the results depend on the processing

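The counts of called genes were the least stable values. For HDM in wild type the count of 2 became 1 without the filter on low counts and 1 with a replicate block (Cnn1 in both). There 22.5% and 31.2% of all genes were called. The count was 0 in the 10 compared libraries alone, with 18.2% of all genes called. It ran from 0 to 3 when each library was left out. For HDM in the libraries labelled knockout the count of 1 became 3 in the 10 libraries alone, where 58.7% of all genes were called. It was 8 both without the adipose-rich and without the heart-rich libraries, where 54.8% and 51% of all genes were called. Both of these fits leave out only KO_HDM 5 among the libraries labelled knockout. It ran from 1 to 4 when each library was left out. The cause was not tested beyond the libraries named in the report. For knockout labels under HDM the count became 4 without the adipose-rich libraries, with 7.34% of all genes called. It was 3 without the heart-rich libraries (Hhip higher, Tagln and Myocd lower), with 4.88% of all genes called. The interaction count of 1 became 0 with the replicate block and 0 without the adipose-rich or the heart-rich libraries. In these fits 1.52%, 0.631% and 0.685% of all genes were called. The count ran from 0 to 1 when each library was left out. DESeq2 also called Acta2 in wild type (-1.03, adjusted p 0.0196), and edgeR called it without WT_saline 1, 4 or 5 or KO_HDM 5 and without the heart-rich libraries (-0.52, adjusted p 0.0466). Actg2 was also called lower in the libraries labelled knockout without WT_saline 2 (-0.65, adjusted p 0.0129).

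The replicate block changed no other call of a member. Same-numbered libraries correlated between -0.43 and 0.51 in their deviations. The correlation was over 0.1 in 4 of 5 pairs for HDM in wild type and for the labels under saline, in 3 of 5 for HDM with the knockout label and in 1 of 5 for the labels under HDM. Of 10 libraries in each of these comparisons, 3, 6, 3 and 0 correlated best with their own number. No comparison had every pair over 0.1 and the labels state no pairing, so the numbers were not taken to pair the libraries.

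The values that changed sign, none of them called in either fit unless said, were these. Without the adipose-rich libraries, in wild type Lmod1 gave 0.098 and Lgr6 0.371, and at equal Myh11 Des gave -0.463 (adjusted p 0.0211); in the libraries labelled knockout Lgr6 gave -0.542, and -0.312 at equal Myh11; under saline between labels Des gave 0.191, Actg2 0.080 and Lmod1 0.074; and in the interaction Acta2 gave -0.329, Myh11 -0.352, Tagln -0.592, Cnn1 -0.535, Actg2 -0.607, Lmod1 -0.746 and Lgr6 -0.913. Also without the adipose-rich libraries, Tagln at equal Myh11 gave -0.012 between labels under saline. Without the heart-rich libraries Des gave 0.231 in wild type, Lgr6 -0.575 in the libraries labelled knockout, and between labels under saline Des gave 0.053, Myocd 0.018 and Lmod1 0.026; in the interaction Acta2 gave -0.232, Myh11 -0.249, Tagln -0.527, Cnn1 -0.269, Actg2 -0.503, Lmod1 -0.578 and Lgr6 -0.144. Without the filter Des gave 0.004 in wild type and Myocd 0.014 in the libraries labelled knockout, where RLE factors gave Myocd 0.001. The correlation of Des with Myh11 was -0.08 without WT_saline 2 and KO_HDM 5.

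When each library was left out, values crossed 0 for these results. In wild type Des ran from -0.562 to 0.305, Myocd from -0.223 to 0.697 and Lgr6 from -1.131 to 0.295; at equal Myh11, Tagln ran from -0.104 to 0.014 and Des from -0.156 to 0.654. In the libraries labelled knockout Myh11 ran from -0.477 to 0.033, Myocd from -0.385 to 0.136 and Lgr6 from -0.524 to 0.977. Between labels under saline Des ran from -0.435 to 0.055, Myocd from -0.814 to 0.019 and Lmod1 from -0.685 to 0.028. Between labels under HDM Acta2 ran from -0.480 to 0.062, Cnn1 from -0.746 to 0.069 and Lgr6 from -1.564 to 0.374. In the interaction Tagln ran from -0.277 to 0.273, Actg2 from -0.279 to 0.361, Myocd from -0.736 to 0.184, Lmod1 from -0.211 to 0.502 and Lgr6 from -0.105 to 1.797. At equal Myh11, between labels under saline Tagln ran from -0.050 to 0.108, Des from -0.029 to 0.255, Actg2 from -0.014 to 0.188 and Lgr6 from -0.443 to 0.275, under HDM Cnn1 from -0.119 to 0.136, Lmod1 from -0.080 to 0.040 and Lgr6 from -0.681 to 0.253, and in the interaction Acta2 from -0.077 to 0.045, Cnn1 from -0.219 to 0.081 and Lgr6 from -0.511 to 0.511. The correlation of Hhip with Myh11 ran from -0.007 to 0.231. A prior count of 0.5 left every correlation on its side of the threshold.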
